A study of Homo sapiens with 6 samples.

Results

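The miR-181 family was examined in small RNA libraries from respiratory epithelial cells exposed to transforming growth factor beta 1 (TGF-β1). Its 7 members are mature arms matched by name among the 2588 miRNA rows of each library, namely hsa-miR-181a-5p, hsa-miR-181b-5p, hsa-miR-181c-5p, hsa-miR-181d-5p, hsa-miR-181a-3p, hsa-miR-181c-3p and hsa-miR-181a-2-3p. The family was selected on its own log2 ratios to control in these libraries, so those ratios are given as a description without a test. A549 cells come from a human lung adenocarcinoma, and BEAS-2B is an immortalised line derived from human bronchial epithelium. Both were labelled wild type, and each was cultured for 48 h without TGF-β1, with 1 ng/mL or with 5 ng/mL. Per the labels, TGF-β1 was given in medium with reduced serum, and whether the controls had the same medium is not stated there. The comparison asks which miRNAs differ in level after exposure to the cytokine. There were 6 libraries, 1 for each line and dose, so no difference below has a replicate check and no p-value is given.

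miR-181 is a vertebrate miRNA family transcribed from hairpin pairs on separate chromosomes. Each hairpin yields a 5p arm, which is usually the strand kept by the silencing complex, and a 3p arm, which is usually degraded. A miRNA recognises target mRNAs mainly through its seed near the 5′ end, so arms that share a seed share many predicted targets. The family is known for its part in lymphocyte development, and miR-181a has been described as responsive to TGF-β signalling in epithelial cells.

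The mature sequences are shown because the family divides by seed. Bases 2 to 8, the seed, are in capitals. All 7 members matched the RefSeq table (GRCh38.p14).
hsa-miR-181a-5p: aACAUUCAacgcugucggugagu
hsa-miR-181b-5p: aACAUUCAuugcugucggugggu
hsa-miR-181d-5p: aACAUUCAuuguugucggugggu
hsa-miR-181c-5p: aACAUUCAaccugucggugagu
hsa-miR-181a-3p: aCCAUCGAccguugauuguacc
hsa-miR-181a-2-3p: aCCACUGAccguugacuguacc
hsa-miR-181c-3p: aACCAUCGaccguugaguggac

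The 4 members on the 5p side carried the same seed, ACAUUCA, which 5 of the 2370 mature names in the table share. The fifth name was hsa-miR-4262, which had a count of 0 in all 6 libraries. Outside the seed, and counting positions from 1 at the 5′ end, hsa-miR-181b-5p differed from hsa-miR-181a-5p by A9U, C10U and A21G. A single substitution, C12U, separated hsa-miR-181d-5p from hsa-miR-181b-5p. hsa-miR-181c-5p equals hsa-miR-181a-5p with the base at position 11 removed. The 3p members had 3 distinct seeds, and hsa-miR-181a-2-3p differed from hsa-miR-181a-3p by U5C and C6U within the seed and by U16C outside it. How many mismatches the read mapping allowed is not given in the sources used here, so reads of arms that differ by 1 base may have been shared between names.

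The 3p arms tell apart the hairpins of which the 5p arms are shared. hsa-miR-181a-5p is encoded identically in MIR181A1 on chromosome 1 and in MIR181A2 on chromosome 9, and hsa-miR-181b-5p likewise in MIR181B1 and MIR181B2, so a count of either 5p arm has no single locus. hsa-miR-181a-3p comes from MIR181A1 and hsa-miR-181a-2-3p from MIR181A2. Both hairpins are shown, with the mature arms in capitals, since the results on the 3p arms turn on them.
MIR181A1, chr1:198859044-198859153, minus strand: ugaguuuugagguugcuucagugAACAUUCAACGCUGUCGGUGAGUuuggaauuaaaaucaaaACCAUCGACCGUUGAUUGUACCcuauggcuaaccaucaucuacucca
MIR181A2, chr9:124692442-124692551, plus strand: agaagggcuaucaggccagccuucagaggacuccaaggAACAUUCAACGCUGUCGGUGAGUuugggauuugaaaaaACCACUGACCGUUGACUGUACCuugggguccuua

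On GRCh38, MIR181B1 lies 61 bases from MIR181A1, and both are in an intron of the long noncoding RNA gene MIR181A1HG. MIR181B2 lies 1158 bases from MIR181A2, and both are in an intron of the noncoding host gene MIR181A2HG and, on the opposite strand, in an intron of the nuclear receptor gene NR6A1. MIR181C (chr19:13874699-13874808) and MIR181D (chr19:13874875-13875011) lie 66 bases apart on the plus strand of chromosome 19, in an intron of NANOS3 in the GENCODE annotation. MIR23A, at the end of another miRNA cluster, lies 38039 bases from MIR181C.

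The libraries held 633318 to 900424 miRNA counts. A single miRNA, hsa-miR-21-5p, took 47.6% to 57.2% of the counts in 5 libraries and 35.4% in the BEAS-2B control. Counts were therefore scaled by trimmed mean of M-values (TMM) and are called normalised counts below. The normalised data value (ND) is log2(normalised count + 1). Intervals are 95% intervals that cover counting error only, neither the scaling nor the spread between cultures. They are exact, save those of differences of ratios between the lines, which are normal approximations. The epithelial miRNAs (the miR-200 family with hsa-miR-205-5p) summed to 277 to 642 CPM (counts relative to the total of the library), with hsa-miR-205-5p at 0 in 3 libraries. Markers of blood cells summed to at most 9 counts, muscle markers to at most 3, and the liver miRNA hsa-miR-122-5p to at most 14, in any library.

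The family's level was carried by 2 of its 7 members. In untreated cells, hsa-miR-181a-5p and hsa-miR-181b-5p together made up nearly all of the 5p counts in both lines, hsa-miR-181a-2-3p followed, and the arms of MIR181C were close to the limit of detection. Both TGF-β1 doses were accompanied by higher normalised counts of these abundant arms, hsa-miR-181a-2-3p included, in both lines. The summed 5p arms took 0.165% (exact Clopper-Pearson interval 0.156 to 0.174) of the A549 control library, 0.361% (0.349 to 0.374) with 1 ng/mL and 0.450% (0.434 to 0.467) with 5 ng/mL. In BEAS-2B cells these shares were 0.309% (0.297 to 0.322), 0.510% (0.493 to 0.527) and 0.531% (0.515 to 0.548).

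**Figure D1:**
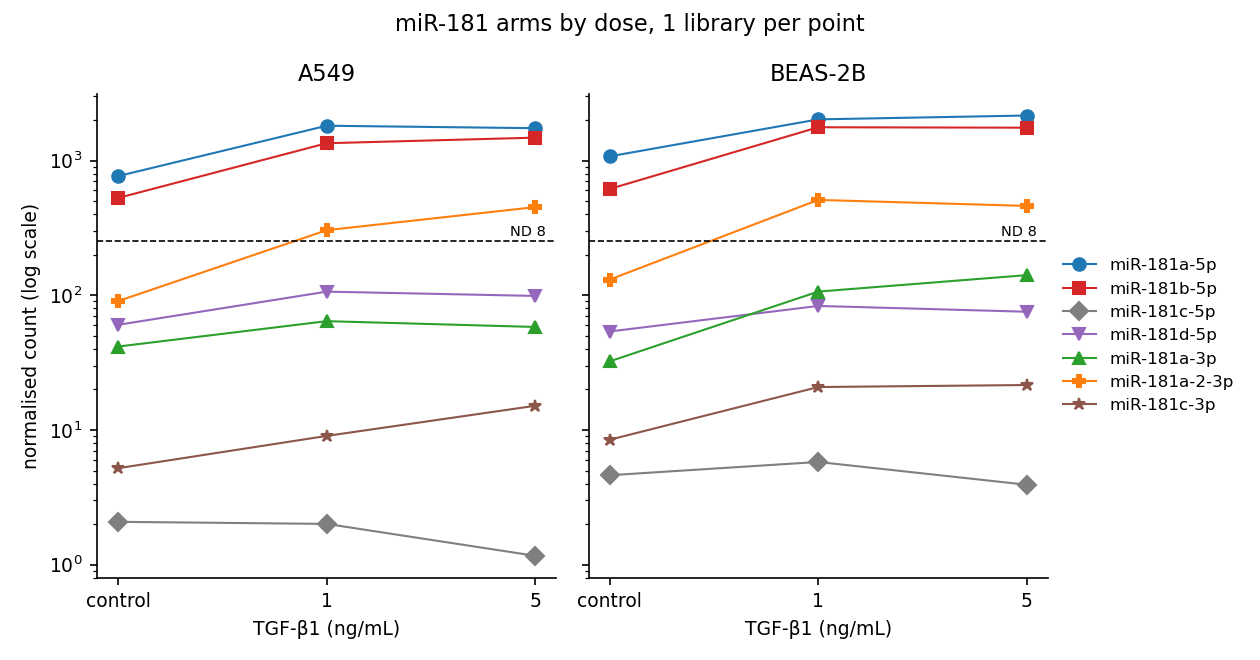
Normalised counts (log scale) of the 7 miR-181 arms against TGF-β1 dose in A549 (left) and BEAS-2B (right) libraries, each point being 1 library, with a dashed line at an ND of 8. hsa-miR-181a-5p and hsa-miR-181b-5p lie above the line in all 6 libraries, hsa-miR-181a-2-3p crosses it between control and 1 ng/mL in both lines, and the other 4 arms stay below it.

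hsa-miR-181a-5p, the most abundant member, had counts of 737, 1807 and 1495 in A549 cells with 0, 1 and 5 ng/mL, and of 1397, 1747 and 2204 in BEAS-2B cells. After scaling these were 767, 1814 and 1740 in A549 cells and 1075, 2023 and 2161 in BEAS-2B cells. Both treated libraries of each line were above their control, by about the same amount at either dose. The log2 ratio to control was 1.24 (1.12 to 1.37) and 1.18 (1.05 to 1.31) in A549 cells at 1 and 5 ng/mL, and 0.91 (0.81 to 1.01) and 1.01 (0.91 to 1.11) in the BEAS-2B line. Among all miRNAs it was the 61st most abundant in the A549 control library and the 37th and 39th in the treated ones. In BEAS-2B cells it moved from place 46 to place 30 at both doses.

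hsa-miR-181b-5p, which shares the seed, had counts of 507, 1340 and 1272 in A549 cells and of 800, 1527 and 1790 in BEAS-2B cells. The treated libraries again lay above their controls. Its log2 ratios were 1.35 (1.20 to 1.50) and 1.49 (1.34 to 1.64) in A549 cells, and 1.52 (1.4 to 1.65) and 1.51 (1.39 to 1.63) in BEAS-2B cells. In bulk RNA, more cells holding a miRNA and more of it in each cell cannot be told apart.

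hsa-miR-181d-5p was present at a far lower level, with counts of 58, 106 and 85 in A549 cells and of 70, 72 and 77 in BEAS-2B cells. Its ND stayed between 5.78 and 6.75. The log2 ratios to control were 0.81 (0.34 to 1.31) and 0.70 (0.21 to 1.22) in A549 cells, and 0.62 (0.14 to 1.13) and 0.48 (0.00 to 0.98) in BEAS-2B cells. The raw counts of the 3 BEAS-2B libraries differ by at most 7, so the BEAS-2B ratios rest on the scaling of the control library, and by total counts they were 0.20 and 0.08.

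hsa-miR-181c-5p was nearly undetected, with counts of 2, 2 and 1 in A549 cells and of 6, 5 and 4 in BEAS-2B cells. The A549 values are at or under the limit of 3 counts that a count of 0 allows, so no fold was formed there. In BEAS-2B cells the log2 ratios were 0.27 (-1.72 to 2.30), which turned to -0.09 by total counts, and -0.19 (-2.50 to 1.84), and neither direction was detectable at this depth.

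hsa-miR-181a-2-3p, the 3p arm of the chromosome 9 hairpin, showed the largest ratios of the 3 abundant members. Its counts were 87, 303 and 388 in A549 cells and 170, 441 and 470 in BEAS-2B cells, and every treated library exceeded its control. The log2 ratios to control were 1.74 (1.4 to 2.11) and 2.31 (1.98 to 2.67) in A549 cells, that is 3.33-fold and 4.94-fold, and 1.96 (1.71 to 2.23) and 1.81 (1.56 to 2.08) in BEAS-2B cells, that is 3.88-fold and 3.50-fold. It ranked 9th of 137 miRNAs by this ratio in A549 cells at 1 ng/mL, 6th of 141 at 5 ng/mL, 2nd of 120 in BEAS-2B cells at 1 ng/mL and 4th of 125 at 5 ng/mL.

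hsa-miR-181a-3p, the 3p arm of the chromosome 1 hairpin, differed between the lines by more than counting error. Its counts were 40, 64 and 50 in A549 cells and 42, 92 and 144 in BEAS-2B cells. The A549 log2 ratios were 0.61 (0.03 to 1.23) and 0.47 (-0.15 to 1.12), the latter with an interval that includes 0, while the BEAS-2B ratios were 1.69 (1.18 to 2.28) and 2.09 (1.62 to 2.66). The A549 ratio minus the BEAS-2B ratio was -1.08 (-1.85 to -0.30) for the lower dose and -1.62 (-2.40 to -0.84) for the higher. For hsa-miR-181a-5p the difference was smaller and of the other sign, at 0.33 (0.17 to 0.49) and 0.17 (0.01 to 0.33), beyond counting error under this scaling. At 5 ng/mL its sign depended on the scaling. By total counts without hsa-miR-21-5p the ratios there were 1.17 in A549 and 1.19 in BEAS-2B cells. For hsa-miR-181b-5p the same difference came to -0.17 (-0.36 to 0.02) and -0.02 (-0.21 to 0.17). For hsa-miR-181a-2-3p it was -0.22 (-0.65 to 0.21) and 0.50 (0.08 to 0.92).

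hsa-miR-181c-3p was detected above its partner arm but at low counts, 5, 9 and 13 in A549 cells and 11, 18 and 22 in BEAS-2B cells. The log2 ratios were 0.69 (-0.94 to 2.72) and 1.38 (-0.04 to 3.38) in A549 cells, and 1.21 (0.14 to 2.53) and 1.25 (0.24 to 2.54) in BEAS-2B cells. The A549 intervals include 0.

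**Figure D2:**
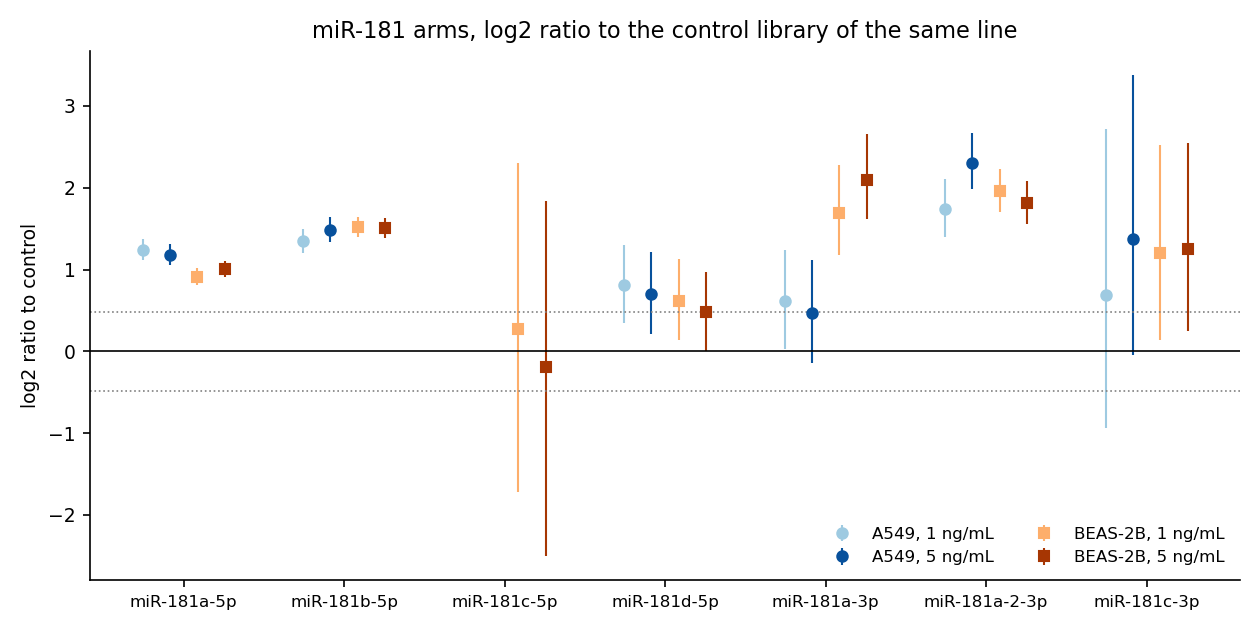
Log2 ratio of the normalised count to the control library of the same line for each miR-181 arm, with circles for A549, squares for BEAS-2B, light colours for 1 ng/mL and dark colours for 5 ng/mL. Bars are 95% counting intervals from 1 library per group, and dotted lines mark a 1.4-fold difference. The ratios of hsa-miR-181a-5p, hsa-miR-181b-5p and hsa-miR-181a-2-3p lie between 0.91 and 2.31, those of hsa-miR-181a-3p are higher in BEAS-2B than in A549 cells, and no A549 ratio was formed for hsa-miR-181c-5p.

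The study's criteria ask for an ND value no lower than 8, read here in the greater of the compared libraries, together with a 1.4-fold difference. Of the 7 members, 3 reached the ND criterion in each of the 4 comparisons with control, and these 3, the 5p arms hsa-miR-181a-5p and hsa-miR-181b-5p with the 3p arm hsa-miR-181a-2-3p, were also past the fold criterion in each, all higher with TGF-β1. By total counts, hsa-miR-181a-2-3p at 1 ng/mL in A549 cells was no longer past them, nor was hsa-miR-181a-5p at 1 ng/mL in BEAS-2B cells, which a minimum fold of 2 also removed. No member was past the criteria as lower. Among all miRNAs that reached the ND criterion, 27% (37 of 137) were higher by at least 1.4-fold in A549 cells at 1 ng/mL, 27% (38 of 141) at 5 ng/mL, 15.8% (19 of 120) in BEAS-2B cells at 1 ng/mL and 20% (25 of 125) at 5 ng/mL. Because these ratios chose the family, its count is not read against those shares. hsa-miR-181a-2-3p passed the ND criterion through its treated libraries alone, since its control values were 6.52 and 7.04. Its ND of 8.25 with 1 ng/mL in A549 cells was the closest above the limit, and the 7.15 of hsa-miR-181a-3p with 5 ng/mL in BEAS-2B cells the closest below it. The median log2 ratio of all miRNAs that reached the criterion was -0.11, -0.03, -0.04 and -0.08 in the same order.

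At 5 ng/mL, 109 miRNAs reached the ND criterion in both lines, and 9 of them were higher by at least 1.4-fold in both. These comprised the 3 miR-181 arms, both arms of hsa-miR-455, and hsa-let-7e-5p, hsa-miR-27a-5p, hsa-miR-1246 and hsa-miR-125b-1-3p. In the plot of both lines, the miR-181 arms lie at A549 and BEAS-2B log2 ratios of 1.18 and 1.01, 1.49 and 1.51, and 2.31 and 1.81.

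**Figure D3:**
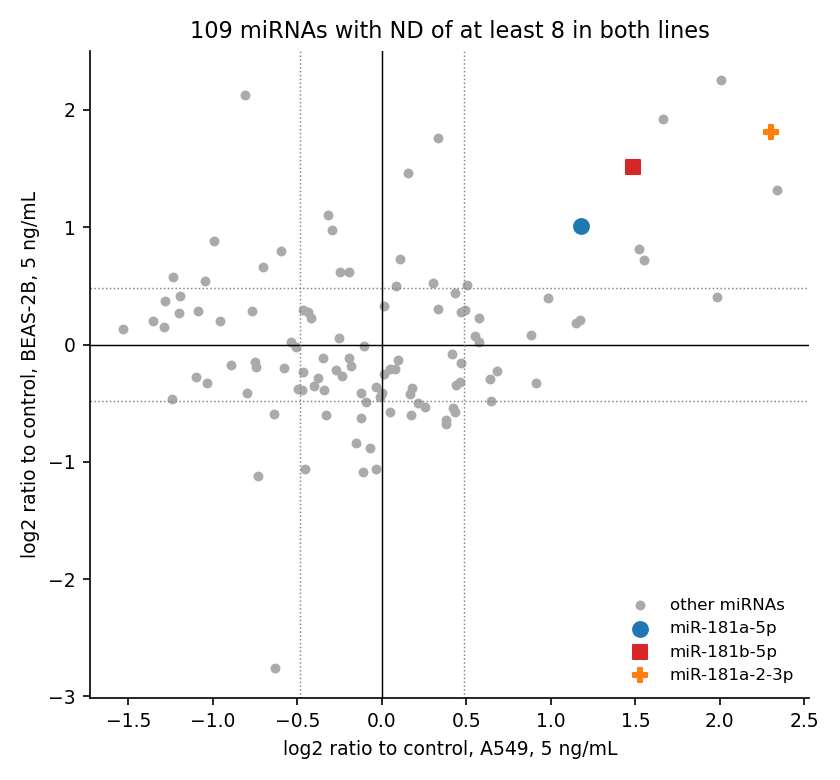
Log2 ratio to control at 5 ng/mL in A549 (horizontal axis) and BEAS-2B cells (vertical axis) for the 109 miRNAs that reached the ND criterion in both lines, 1 library per group. Dotted lines mark 1.4-fold, and the 3 coloured miR-181 arms lie in the upper right corner among the 9 miRNAs past that fold in both lines.

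Since the 4 members on the 5p side share a seed, their sum was followed as well. The summed count was 1304, 3255 and 2853 in A549 cells and 2273, 3351 and 4075 in BEAS-2B cells. The log2 ratio to control was 1.27 (1.18 to 1.36) and 1.29 (1.20 to 1.39) in A549 cells, and 1.15 (1.07 to 1.23) and 1.19 (1.12 to 1.27) in BEAS-2B cells. In BEAS-2B cells the ratio depended on the scaling of the control library, and by total counts it was 0.72 and 0.78, where the median of all miRNAs that reached the ND criterion was also lower, at -0.47 and -0.51.

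Within a library, the make-up of the 5p counts does not depend on scaling. hsa-miR-181a-5p was the largest part in all 6 libraries, with 56.5% (53.8 to 59.2), 55.5% (53.8 to 57.2) and 52.4% (50.5 to 54.2) of the 5p counts in A549 cells at 0, 1 and 5 ng/mL, and 61.5% (59.4 to 63.5), 52.1% (50.4 to 53.8) and 54.1% (52.5 to 55.6) in BEAS-2B cells. The share of hsa-miR-181b-5p was 38.9% (36.2 to 41.6), 41.2% (39.5 to 42.9) and 44.6% (42.7 to 46.4) in A549 cells, and 35.2% (33.2 to 37.2), 45.6% (43.9 to 47.3) and 43.9% (42.4 to 45.5) in BEAS-2B cells. Both treated BEAS-2B libraries thus had a larger hsa-miR-181b-5p share than their control, beyond counting error. The ratio of hsa-miR-181b-5p to hsa-miR-181a-5p changed on the log2 scale by 0.61 (0.45 to 0.77) and 0.50 (0.35 to 0.66) in the treated BEAS-2B libraries, and by 0.11 (-0.09 to 0.30) and 0.31 (0.11 to 0.51) in A549 cells. The A549 change at 1 ng/mL was within counting error. hsa-miR-181d-5p made up 4.45% (3.39 to 5.71), 3.26% (2.67 to 3.93) and 2.98% (2.39 to 3.67) of the 5p counts in A549 cells and 3.08% (2.41 to 3.88), 2.15% (1.68 to 2.70) and 1.89% (1.49 to 2.36) in BEAS-2B cells, and its ratio to hsa-miR-181a-5p was lower with treatment in all 4 comparisons, with an interval clear of 0 in BEAS-2B cells at 5 ng/mL, -0.52 (-1.02 to -0.02). hsa-miR-181c-5p was never above 0.264%.

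**Figure D4:**
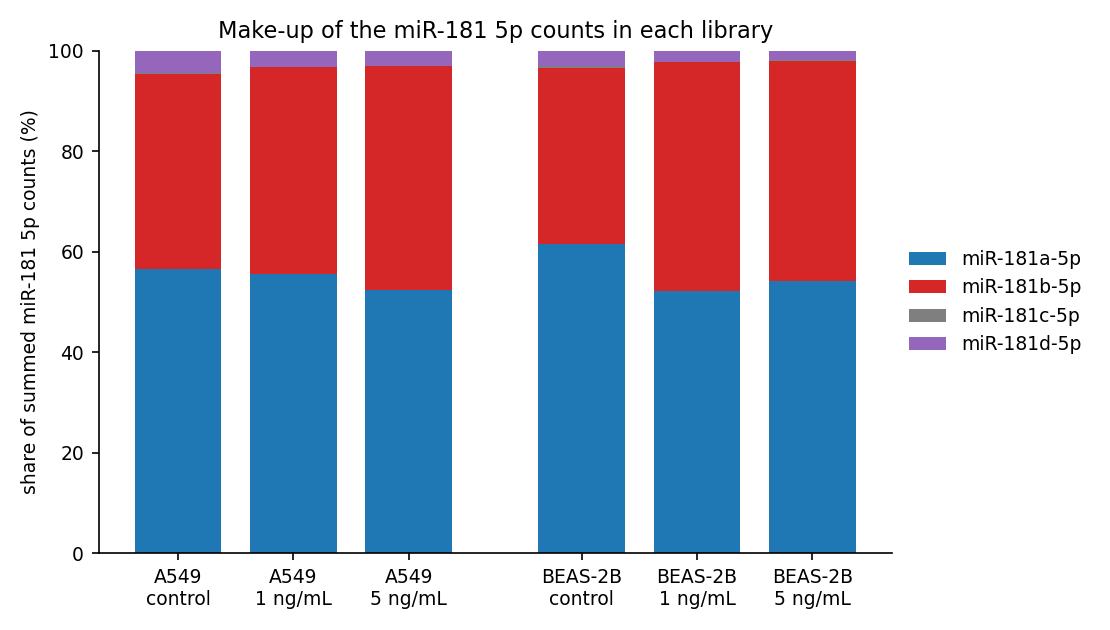
Share of hsa-miR-181a-5p, hsa-miR-181b-5p, hsa-miR-181c-5p and hsa-miR-181d-5p in the summed 5p counts of each library, as stacked bars from 0 to 100%. hsa-miR-181b-5p takes a larger part in every treated library than in the control of the same line, from 35.2% to 45.6% in BEAS-2B cells at 1 ng/mL, and the hsa-miR-181c-5p layer is too thin to see.

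The 3p arms give ratios between hairpins within a library, which are free of scaling too. Per hsa-miR-181a-3p, the A549 libraries held 2.18 (1.48 to 3.25), 4.73 (3.60 to 6.30) and 7.76 (5.77 to 10.6) counts of hsa-miR-181a-2-3p at 0, 1 and 5 ng/mL. In BEAS-2B cells the ratio was 4.05 (2.87 to 5.82), 4.79 (3.82 to 6.07) and 3.26 (2.70 to 3.96). The chromosome 9 arm thus exceeded the chromosome 1 arm in all 6 libraries. The log2 change of this ratio with treatment was 1.12 (0.41 to 1.82) and 1.83 (1.10 to 2.56) in A549 cells, whereas in BEAS-2B cells it was 0.24 (-0.38 to 0.85) and -0.31 (-0.90 to 0.26), within counting error.

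The 3p arms of the other hairpins that are not members gave few counts. hsa-miR-181b-3p of chromosome 1 had 6, 9 and 9 counts in A549 cells and 9, 24 and 38 in BEAS-2B cells, in the latter a log2 ratio of 1.86 (0.85 to 3.29) and 2.27 (1.35 to 3.66). hsa-miR-181b-2-3p of chromosome 9 had 1, 5 and 9 counts in A549 cells and 1, 9 and 8 in BEAS-2B cells. hsa-miR-181d-3p was at 0 in all libraries, which allows up to 3 counts in each. With the 3p arms summed by chromosome, a step added after the values were seen, the ratio of chromosome 9 to chromosome 1 was 1.91, 4.22 and 6.73 in A549 cells and 3.35, 3.88 and 2.63 in BEAS-2B cells. The hsa-miR-181a arms made up most of both sums.

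Measured against the 5p arm that both hairpins share, the 3p arms of chromosome 9 and chromosome 1 differed. hsa-miR-181a-2-3p amounted to 0.118, 0.168 and 0.260 of the hsa-miR-181a-5p count in A549 cells and to 0.122, 0.252 and 0.213 in BEAS-2B cells, higher in every treated library than in its control. The ratio of hsa-miR-181a-3p to hsa-miR-181a-5p was 0.0543, 0.0354 and 0.0334 in A549 cells and 0.0301, 0.0527 and 0.0653 in BEAS-2B cells. This ratio was lower than control in A549 cells, with log2 changes of -0.62 (-1.22 to 0.01) and -0.70 (-1.34 to -0.05), and higher in BEAS-2B cells, with 0.81 (0.26 to 1.38) and 1.12 (0.60 to 1.66). For background, 80 hairpin names had a 3p and a 5p row that each averaged at least 10 normalised counts, and in 24 of them, 30%, this ratio moved in opposite directions in the lines at both doses. By the size of the gap between lines at 5 ng/mL, hsa-miR-181a-3p was 7th of those 80.

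**Figure D5:**
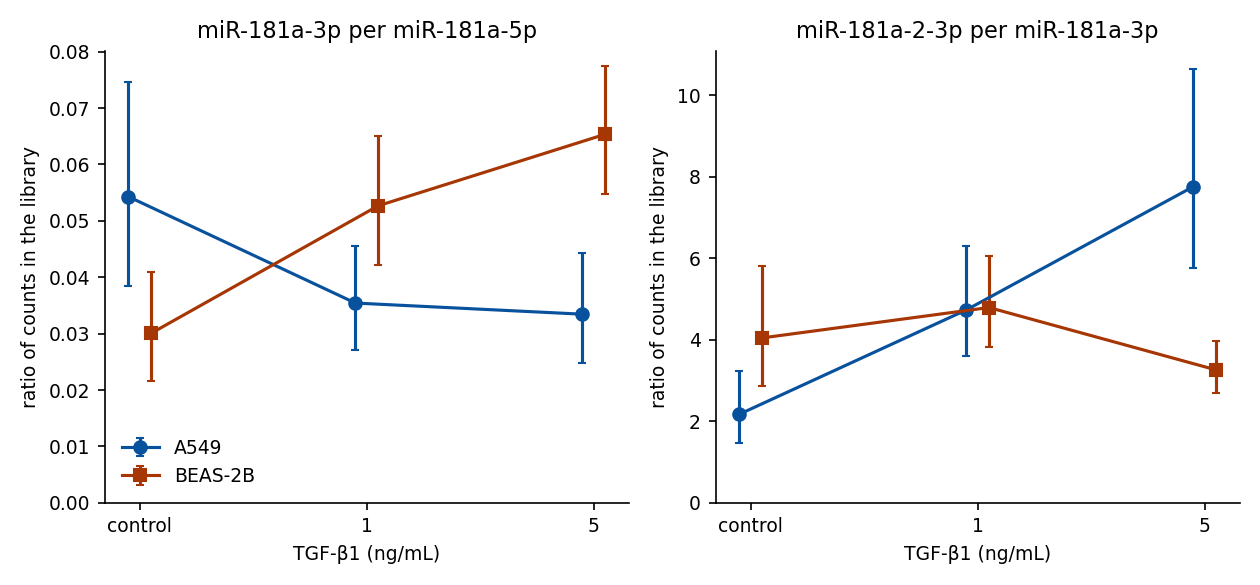
Ratio of counts within each library for hsa-miR-181a-3p per hsa-miR-181a-5p (left) and hsa-miR-181a-2-3p per hsa-miR-181a-3p (right) against TGF-β1 dose, with A549 as circles, BEAS-2B as squares and 95% counting intervals as bars. The left ratio is 0.0543 in the A549 control and 0.0334 at 5 ng/mL, against 0.0301 and 0.0653 in BEAS-2B cells, and the right ratio is 2.18 and 7.76 in the same A549 libraries.

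Between the doses, the abundant 5p arms differed little, while hsa-miR-181a-2-3p changed relative to other arms. Within libraries, its ratio to hsa-miR-181a-3p changed on the log2 scale by 0.71 (0.11 to 1.32) in A549 cells and -0.55 (-0.99 to -0.12) in BEAS-2B cells. Its ratio to hsa-miR-181a-5p changed by 0.63 (0.39 to 0.87) and -0.24 (-0.46 to -0.03). The ratio of hsa-miR-181a-3p to hsa-miR-181a-5p changed within counting error in both lines. In A549 cells 1 member, hsa-miR-181a-2-3p, was past the criteria at 5 against 1 ng/mL, with a log2 ratio of 0.57 (0.35 to 0.79), where 16.9% of miRNAs were past them in either direction. In BEAS-2B cells no member was, against 6.61% of miRNAs, and hsa-miR-181a-3p had a log2 ratio of 0.40 (0.02 to 0.80). The summed 5p arms differed between doses by 0.02 (-0.05 to 0.10) in A549 cells and 0.04 (-0.02 to 0.11) in BEAS-2B cells.

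In the control libraries, hsa-miR-181a-5p was lower in A549 than in BEAS-2B cells, with a log2 ratio of -0.49 (-0.62 to -0.36). It was the only member past the criteria among the 2 that reached the ND minimum there, where 68.9% of miRNAs were past them in either direction. The summed 5p arms had a ratio of -0.37 (-0.47 to -0.27), hsa-miR-181b-5p of -0.22 (-0.39 to -0.06) and hsa-miR-181a-2-3p of -0.53 (-0.92 to -0.15). These 4 values kept their sign under every scaling tried, but not their size. By total counts hsa-miR-181a-5p had -1.02, and by TMM over rows with a mean count of at least 10 it had -0.81. The median log2 ratio of all miRNAs that reached the ND criterion was 0.27 here. By those 2 scalings it was -0.43 and -0.21. For hsa-miR-181d-5p (0.16) and hsa-miR-181a-3p (0.36) the intervals included 0, and the sign turned by total counts for both and, for hsa-miR-181d-5p, also with TMM over rows with a mean count of at least 10 (-0.15).

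The miRNAs whose 4 log2 ratios to control were nearest to those of a member, by the root mean square difference over the 4 comparisons and among 108 candidates outside the family, were the following. For hsa-miR-181a-5p they were hsa-miR-125b-1-3p (0.216), hsa-miR-1246 (0.317) and hsa-miR-1290 (0.377). For hsa-miR-181b-5p they were hsa-miR-455-5p (0.316), hsa-miR-27a-5p (0.487) and then hsa-miR-125b-1-3p (0.495). For hsa-miR-181a-2-3p they were hsa-miR-455-5p (0.337), hsa-miR-455-3p (0.339) and hsa-miR-27a-5p (0.389). The distance between hsa-miR-181a-5p and hsa-miR-181b-5p was 0.427. hsa-miR-181a-2-3p lay 0.901 from hsa-miR-181a-5p and 0.525 from hsa-miR-181b-5p.

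Other miRNAs linked to TGF-β1 were counted in the same way. Of 10 miRNAs generally described as raised by TGF-β1, 1 was past the criteria as higher and 1 as lower in A549 cells at 1 ng/mL, and 1 as higher and 2 as lower at 5 ng/mL. In BEAS-2B cells 2 were higher at 1 ng/mL and 3 at 5 ng/mL, with none lower. Only 6 of the 10 reached the ND criterion in each A549 comparison and 5 in each BEAS-2B comparison. Among all miRNAs that reached it, the shares called higher are those given above, and 21.9% and 26.2% were called lower in A549 cells and 13.3% and 16% in BEAS-2B cells. The median log2 ratio of the 9 with a mean normalised count of at least 10 was -0.12, -0.35, 0.42 and 0.83 in the same order. hsa-miR-143-3p, a miRNA of smooth muscle, had a log2 ratio of 3.05 in A549 cells at 5 ng/mL, and hsa-miR-21-5p, described as profibrotic, had -0.32 in A549 and 1.10 in BEAS-2B cells. Of 9 miRNAs generally described as lowered by TGF-β1, 1 was higher in A549 cells at 1 ng/mL (hsa-miR-200b-3p, 0.91) and 1 lower in BEAS-2B cells at 1 ng/mL (hsa-miR-29a-3p, -0.62), with 1 or 2 of the 9 reaching the ND criterion in each comparison. The list's medians were 0.03, 0.12, -0.46 and -0.11.

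The 6 arms of the hsa-miR-23a cluster, which lies 38039 bases from MIR181C on chromosome 19, were set beside the family. In A549 cells 3 were past the criteria as higher at 1 ng/mL and 1 at 5 ng/mL, and in BEAS-2B cells 1 at each dose, beside shares over all miRNAs of 27%, 27%, 15.8% and 20%. Only 4 of the 6 arms reached the ND criterion, and hsa-miR-27a-5p was past the criteria in all 4 comparisons. Its log2 ratios were 1.75 and 2.34 in A549 cells and 1.36 and 1.32 in BEAS-2B cells. The other arm of that hairpin, hsa-miR-27a-3p, had 0.51 and 0.18 in A549 cells and -0.04 and -0.37 in BEAS-2B cells. The medians over the 5 arms with a mean normalised count of at least 10 were 0.54, 0.46, -0.04 and -0.09.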

How the data were processed

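Total RNA of the 6 cultures was made into small RNA libraries with a commercial kit. The deposited values are raw counts of reads per mature miRNA, not normalised by the authors, for 2588 miRNAs in each library. The submitters' processing notes name Bowtie2 and bedtools; versions, settings, genome build and miRNA release are not given in the sources used here.

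Counts were scaled by TMM over the 6 libraries (edgeR 4.0.16, R 4.3.3) to the mean effective library size of 749498. Log2 ratios used normalised counts plus 1. Intervals were exact conditional binomial intervals at 95% (SciPy 1.17.1). For the A549 minus BEAS-2B differences of log2 ratios they were normal approximations from the counts (delta method). The ND minimum of 8 equals 255 normalised counts. No molecular identifiers were mentioned, so reads copied from the same molecule could not be told apart. The intervals treat each read as independent, and they are too narrow where reads are such copies. The calculations were tested on simulated data. Alternatives comprised DESeq2 1.42.0 size factors, total counts, other ND and fold criteria, and pseudocounts. Sequences came from RefSeq (GRCh38.p14), host genes from GENCODE (GRCh38).

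All 7 members, every other miR-181 row, the miRNAs of the same seed, the members of the lists and the 3 nearest miRNAs were named by rule. The members and lists were chosen with earlier results of these data known.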

Additional observations from a re-analysis of the deposited data

Results flagged for a closer look

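The ratio of hsa-miR-181a-3p to hsa-miR-181a-5p moved in opposite directions in the lines. Both treated A549 libraries were below their control and both treated BEAS-2B libraries above it, and at 5 ng/mL the log2 change in A549 minus that in BEAS-2B cells was -1.82. The difference was not tested, since each group is 1 library. It was found among 6 member ratios and 7 within-library ratios examined. Opposite directions occurred in 24 of 80 hairpin names, with hsa-miR-181a itself and hsa-miR-181b among those 24. The counts of hsa-miR-181a-3p behind it are 40 to 144, and hsa-miR-181a-5p comes from 2 hairpins, so the ratio is not that of the arms of 1 hairpin.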

How the results depend on the processing

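In all 4 comparisons with control, the ratios of hsa-miR-181a-5p, hsa-miR-181b-5p, hsa-miR-181a-2-3p and the summed 5p arms were above 0 under every scaling tried. Of 182 alternative values of single members in these comparisons, 165 stayed within the counting interval. All values outside it belonged to hsa-miR-181a-5p, hsa-miR-181b-5p or hsa-miR-181a-2-3p, whose intervals are narrow. The intervals of the low-count arms are wide and could hardly be left. The values of the summed 5p arms that fell outside their intervals are the following. By total counts the log2 ratio of the summed 5p arms was 1.13 and 1.45 in A549 cells at 1 and 5 ng/mL, 0.72 and 0.78 in BEAS-2B cells, and -0.90 between the control libraries. With DESeq2 size factors it was 1.17 in A549 cells at 1 ng/mL and 1.07 in the BEAS-2B library given 5 ng/mL. With TMM over rows with a mean count of at least 10 it was 1.16 in A549 cells at 5 ng/mL, 0.97 and 0.90 in BEAS-2B cells, and -0.69 between controls, and by total counts without hsa-miR-21-5p it was 1.37 for that same library. These shifts come from the scale factors alone.

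Without the ND criterion, 6 members were past the fold criterion in each comparison except BEAS-2B cells at 5 ng/mL, where 5 were. The 6 in A549 cells at 5 ng/mL were 5 higher and 1 lower. The lower one, hsa-miR-181c-5p, had 1 count against 2. This lies under the limit of 3 counts and gives no fold, so that 5 rest on detected counts. Of all 2588 miRNA rows, 449 were higher and 336 lower in A549 cells given 1 ng/mL, and 469 and 392 given 5 ng/mL. For the BEAS-2B line these were 321 and 431 with the lower dose, then 374 and 392 with the higher. Between controls, 2 members were past the criteria by total counts and by TMM over the more abundant rows, against 1, all lower in A549 cells. Among all miRNAs that reached the ND criterion, 34 were higher and 70 lower of 143 by total counts. By TMM over the more abundant rows these were 38 and 60 of 142, against 55 and 38 of 135. By total counts, 2 members and not 3 were past the criteria at 1 ng/mL in either line. The reason was that hsa-miR-181a-2-3p fell below the ND criterion in A549 cells and hsa-miR-181a-5p had 0.48 in BEAS-2B cells. Among all miRNAs, 23 of 124 and 8 of 130 were higher there. With a minimum fold of 2, hsa-miR-181a-5p was again the loss in BEAS-2B cells at 1 ng/mL, leaving 2, where 8 of 120 miRNAs were higher. With ND required in both libraries, hsa-miR-181a-2-3p dropped out of all 4 comparisons. No paired analysis was possible because the labels give no replicate numbers and each group is 1 library. The low counts of the MIR181C arms, at most 22, limit what can be seen.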
